A study of Mus musculus with 4 samples.

Results

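The genes described here encode 6 enzymes that make, convert or esterify oxysterols, the oxidized forms of cholesterol to which 7-ketocholesterol (7KC) belongs. They are Hsd11b1, Cyp27a1, Ch25h, Cyp39a1, Soat1 and Soat2, chosen by symbol for these reactions, and all 6 were found among the 24346 gene symbols of the tables. RNA sequencing covered the liver of male ob/ob mice, which lack leptin and become obese, in 4 groups of 1 library each. CD was a regular chow diet with 1% cholesterol and WD a high fat diet with 1% cholesterol, and CD+7KC and WD+7KC were the same diets with 0.01% 7KC. Feeding began at 6 weeks of age and lasted 4 weeks, so that obesity and dietary cholesterol were common to all groups. The number of mice behind a library is not given in the sources used here. With a single library per group, differences below were not checked against replicates, and p-values are left out. Levels are FPKM, fragment numbers divided by transcript length and by the mapped total, which can be compared between genes because they are per length.

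7KC forms from cholesterol without an enzyme or comes from food. In liver it can be reduced by the product of Hsd11b1, hydroxylated on its side chain by that of Cyp27a1, or esterified with a fatty acid by the Soat enzymes for storage in lipid droplets. Side chain hydroxylation of cholesterol, by the products of Cyp27a1 and Ch25h, also makes ligands of the nuclear receptor LXR, and the product of Cyp39a1 adds a ring hydroxyl group to side chain oxysterols, above all to that made by the product of Cyp46a1, on the way to bile acids.

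The FPKM of weakly expressed genes moved in steps worth 1 read, from which the mapped fragments were estimated at 10920000 for CD, 10960000 for CD+7KC, 9440000 for WD and 12120000 for WD+7KC. For 13861 genes that have 1 RefSeq mRNA each, of the low values 72.0% to 73.6% per library lay within 0.1 of a whole read. Read numbers of single genes rest on these estimates and on the shortest mRNA of each gene. The exact (Clopper-Pearson) 95% intervals of ratios cover counting error between 2 libraries only and not the variation between mice. Alb, the albumin gene and a hepatocyte marker, topped all 4 libraries. FPKM values summed to 602059 in WD+7KC and to between 696062 and 715605 in the other libraries. Rescaling to equal sums (TPM) therefore moved the all-gene median of log2 fold changes to 0.21 for WD+7KC against WD and to 0.20 for WD+7KC against CD+7KC, while with the deposited values both medians were within 0.01 of 0. Summed over 18 macrophage markers, FPKM was 293 under CD and 434 under CD+7KC, and 503 under WD and 952 under WD+7KC. Summed over 8 endothelial markers it was 70.6, 107, 58.5 and 167 in the same order, and over 10 hepatocyte markers it was 55848.5, 47282.3, 56653.4 and 44227.3. The sum of 8 stellate cell markers was 194, 173, 209 and 198, and that of 5 adipose markers 233, 182, 306 and 314, with 1 adipose marker (Plin1) listed at 0 throughout. Nearly all of the adipose sum was Fabp4 and Cidec. Adipoq, at 0.088 FPKM in CD and in CD+7KC, and Retn, at 1.21 and 0.241 FPKM there, were listed at 0 in WD and WD+7KC. None of these marker sums is rescaled. In bulk tissue, fewer cells of a type and less RNA per cell cannot be told apart.

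The 6 genes ranged from 429.3 FPKM (Hsd11b1 in CD+7KC) down to a listed 0 (Ch25h in WD). In every library the order was Hsd11b1, Cyp27a1, Soat2 and Cyp39a1, followed by Soat1 and Ch25h, which were the lowest pair. In CD, Ch25h lay above Soat1, and in the other 3 libraries it lay below. Hsd11b1 and Cyp27a1 together held 95.9% of the FPKM of the 6 genes in CD and 91.4% in WD+7KC.

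**Figure D1:**
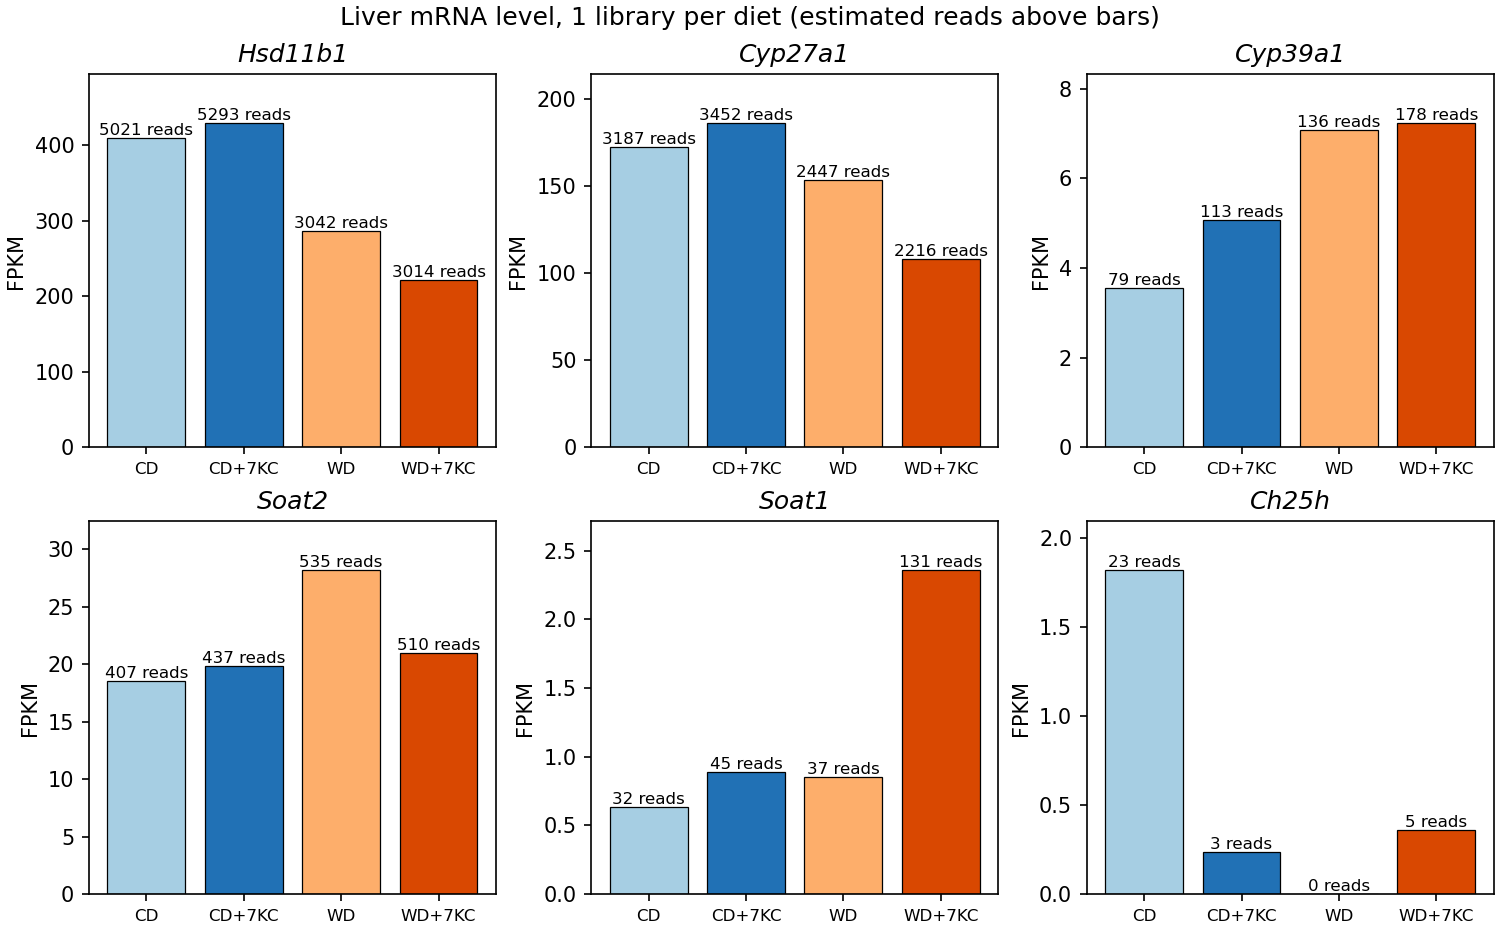
FPKM of each enzyme gene (vertical axis, starting at 0, scaled per panel) in the 4 diet groups (horizontal axis), with the estimated reads behind each bar. Each bar is 1 library, so there are no error bars. Hsd11b1 and Cyp27a1 were lowest in WD+7KC, Soat1 stood out in WD+7KC at 2.36 FPKM, and Ch25h rested on 23 reads in CD and on 5 or fewer elsewhere.

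Of the genes that act on 7KC directly, Hsd11b1 (ENSMUSG00000016194.14, chromosome 1, 193221634 to 193264075 on the minus strand, GRCm38) was the most abundant. Its enzyme, known for regenerating active glucocorticoid inside cells, also reduces the keto group of 7KC. Hsd11b1 was at 408.7 FPKM in CD and 429.3 in CD+7KC, and at 286.5 in WD and 221.1 in WD+7KC. Both CD libraries were above both WD libraries, and WD+7KC was the lowest. WD was at 0.701 of CD (95% counting interval 0.670 to 0.733), and WD+7KC was at 0.515 of CD+7KC (0.492 to 0.539), a log2 fold change of -0.96. Adding 7KC to WD went with a ratio of 0.772 (0.734 to 0.812), or 0.897 (0.852 to 0.943) once rescaled, and adding it to CD with a ratio of 1.05 (1.01 to 1.09). For WD+7KC against WD the log2 fold change of Hsd11b1 was -0.37 and the median of the 10 hepatocyte markers -0.27, or -0.16 and -0.056 after rescaling. For WD+7KC against CD+7KC the values were -0.96 and -0.23, or -0.75 and -0.025 after rescaling. The hepatocyte markers were spread widely around these medians. With the deposited values they ran from Cyp2e1 at -0.86 to Apob at 0.066 for WD+7KC against WD. For WD+7KC against CD+7KC they ran from Cyp2e1 at -0.96, the value of Hsd11b1, to Apoa1 at 0.35. The part of hepatocyte RNA in the differences of Hsd11b1 was not tested. H6pd, which encodes the enzyme that supplies the product of Hsd11b1 with NADPH, was at 111.5 FPKM in CD and 81.7 in CD+7KC, and at 94.3 in WD and 85.1 in WD+7KC. Hsd11b1 was thus 3.67 times as high as H6pd under CD and 5.25 times under CD+7KC, against 3.04 times under WD and 2.60 times under WD+7KC. Lamb3 overlaps Hsd11b1 on the opposite strand, but at 2.10 to 4.48 FPKM it was far below it.

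Cyp27a1 (ENSMUSG00000026170.6, chromosome 1, 74713574 to 74737892, plus strand), which encodes the mitochondrial sterol side chain hydroxylase, was ordered across the libraries as Hsd11b1 was. It was at 172.5 FPKM in CD and 186.2 in CD+7KC, and at 153.2 in WD and 108.1 in WD+7KC. The ratio of WD to CD was 0.888 (0.842 to 0.937) and that of WD+7KC to CD+7KC 0.581 (0.550 to 0.612), or 0.671 (0.636 to 0.708) after rescaling. With 7KC added to WD it was 0.705 (0.666 to 0.747), or 0.820 (0.773 to 0.868) after rescaling, and with 7KC added to CD 1.08 (1.03 to 1.13). Among genes with at least 1 FPKM in either library, 15.9% differed more between WD and WD+7KC than Cyp27a1 did, and 24.7% differed more than Hsd11b1 did. Fdx1, which encodes the ferredoxin that passes electrons to this enzyme, was at 84.4, 76.3, 79.9 and 57.5 FPKM (CD, CD+7KC, WD and WD+7KC), and was likewise lowest in WD+7KC. Fdxr, the ferredoxin reductase gene, was at 9.67, 11.98, 9.91 and 9.14 FPKM in the same order.

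Because Hsd11b1 and Cyp27a1 were ordered alike, the 250 bases before their start sites are shown, 5′ to 3′ on the strand of the gene, from the RefSeq promoter table (GRCm38.p6). That table held 4 of the 6 genes. Capitals mark a CCAAT box (CCAAT) or a GC box (GGGCGG), searched on both strands together with the TATA box (TATAAA) and the cAMP response element (TGACGTCA). The windows are chr1:193242361-193242610 for Hsd11b1, on the minus strand and inside the annotated range of the gene, which begins further upstream, and chr1:74713285-74713534 for Cyp27a1. The Cyp27a1 window ends short of the annotated gene start at 74713574, and distances are counted from the end of each window.
Hsd11b1: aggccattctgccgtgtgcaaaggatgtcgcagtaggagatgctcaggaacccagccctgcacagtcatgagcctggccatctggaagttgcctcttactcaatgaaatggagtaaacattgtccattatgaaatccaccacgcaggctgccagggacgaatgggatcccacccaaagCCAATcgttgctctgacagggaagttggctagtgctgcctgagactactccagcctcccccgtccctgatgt
Cyp27a1: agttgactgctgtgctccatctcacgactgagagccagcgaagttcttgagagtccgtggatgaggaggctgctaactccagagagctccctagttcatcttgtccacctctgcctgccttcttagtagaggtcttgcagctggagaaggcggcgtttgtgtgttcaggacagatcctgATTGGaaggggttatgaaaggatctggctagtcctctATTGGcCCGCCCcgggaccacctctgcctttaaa
Hsd11b1 held 1 CCAAT box, 72 to 68 bases before the start. Cyp27a1 held 2, both on the opposite strand, and a GC box beside the nearer of them, at 28 to 23 bases before the start. Of 32851 promoter windows of the same length, 33.8% held a CCAAT box and 32.7% a GC box, so neither match was rare.

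Cyp39a1 (ENSMUSG00000023963.10, chromosome 17, 43667425 to 43751431, plus strand), which encodes a hydroxylase of the sterol ring known from liver, ran the other way. It was at 3.56 FPKM in CD and 5.08 in CD+7KC, and at 7.09 in WD and 7.24 in WD+7KC, on an estimated 79, 113, 136 and 178 reads. Both WD libraries were above both CD libraries. WD was 1.99 times as high as CD (1.498 to 2.66), and WD+7KC was 1.42 times as high as CD+7KC (1.12 to 1.82). On the log2 scale with a pseudocount of 0.1, WD relative to CD was at 0.97, just under the 2-fold threshold, and after rescaling at 1.01, just over it. 7KC went with a ratio of 1.43 (1.06 to 1.92) under CD and of 1.02 (0.811 to 1.28) under WD, where the depth did not allow a difference to be seen. Cyp27a1 was 48.4 times as high as Cyp39a1 in CD and 14.9 times in WD+7KC. Por, which encodes the reductase that serves this kind of cytochrome in the endoplasmic reticulum, was at 127.9, 116.5, 151.5 and 126.3 FPKM in CD, CD+7KC, WD and WD+7KC.

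The esterifying genes encode acyltransferases that join a fatty acid to the hydroxyl group of a sterol. The product of Soat2 is the form of hepatocytes and intestinal cells in mice, and that of Soat1 is found in most cell types and is the main form of macrophages. Soat2 (ENSMUSG00000023045.13, chromosome 15, 102150526 to 102163469, plus strand) was at 18.6 FPKM in CD and 19.9 in CD+7KC, and at 28.2 in WD and 21.0 in WD+7KC. WD stood above the other 3 libraries, which lay between 18.6 and 21.0 FPKM. The ratio of WD to CD was 1.52 (1.33 to 1.73) and that of WD+7KC to WD 0.743 (0.656 to 0.840), or 0.863 (0.763 to 0.976) after rescaling. WD+7KC relative to CD+7KC was 1.06 (0.927 to 1.20) with the deposited values, with no difference detectable, and 1.22 (1.07 to 1.39) after rescaling. CD+7KC relative to CD was 1.07 (0.933 to 1.23).

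Soat1 (ENSMUSG00000026600.12, chromosome 1, 156424525 to 156474331, minus strand) was at 0.633 FPKM in CD and 0.888 in CD+7KC, and at 0.852 in WD and 2.36 in WD+7KC. Estimated reads were 32, 45, 37 and 131. WD+7KC was above the other 3 libraries. Neither CD+7KC, at a ratio of 1.40 (0.871 to 2.28), nor WD, at 1.34 (0.811 to 2.22), could be told from CD at this depth. With 7KC added to WD, Soat1 was 2.77 times as high (1.90 to 4.09), a log2 fold change of 1.37, and relative to CD+7KC it was 2.66 times as high (1.86 to 3.78) at 1.32. Among genes with at least 1 FPKM in either library, 2.03% differed more between WD and WD+7KC. Soat1 is in that set only through its value of 2.36 FPKM in WD+7KC, so this share is no support for the difference. Soat1 made up 3.30% of the summed FPKM of the esterifying pair under CD and 4.28% under CD+7KC, against 2.93% under WD and 10.1% under WD+7KC, so that Soat2 was 29.3, 22.4, 33.2 and 8.88 times as high as Soat1 in the same order. The sum of the pair was 19.2, 20.8, 29.1 and 23.3 FPKM.
Macrophage markers were higher in WD+7KC as well. All 18 were above their WD value, with a median log2 fold change of 0.96 beside the 1.37 of Soat1. Past 2-fold were 8 of them (Adgre1, Clec4f, Cd5l, Timd4, Cd163, Itgam, Ccr2 and Gpnmb), or 14 after rescaling. Over all 15753 genes, 6.21% were past 2-fold higher in this comparison, and 1629 genes were after rescaling. Adgre1, which encodes the macrophage antigen F4/80, was at 5.03 FPKM without and 14.9 FPKM with 7KC, and the Kupffer cell lectin gene Clec4f at 29.2 and 64.5 FPKM. All 8 endothelial markers were past 2-fold higher, with a median of 1.52, led by Kdr, the gene of a receptor for vascular endothelial growth factor, which went from 2.09 to 8.36 FPKM. None of these markers was at 0 in any library. In CD+7KC relative to CD the macrophage median was 0.54, with 15 of 18 higher. The endothelial median was 0.51, with 7 of 8 higher, and Soat1 had 0.43. In WD+7KC relative to CD+7KC the macrophage median was 1.23, with 17 of 18 higher. The endothelial median there was 0.73, with 8 of 8 higher, and Soat1 had 1.32. In WD relative to CD the macrophage median was 0.74, with 16 of 18 higher, and the endothelial median -0.16, and Soat1 had 0.38. The part of these cell types in the difference of Soat1 was not tested.

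**Figure D2:**
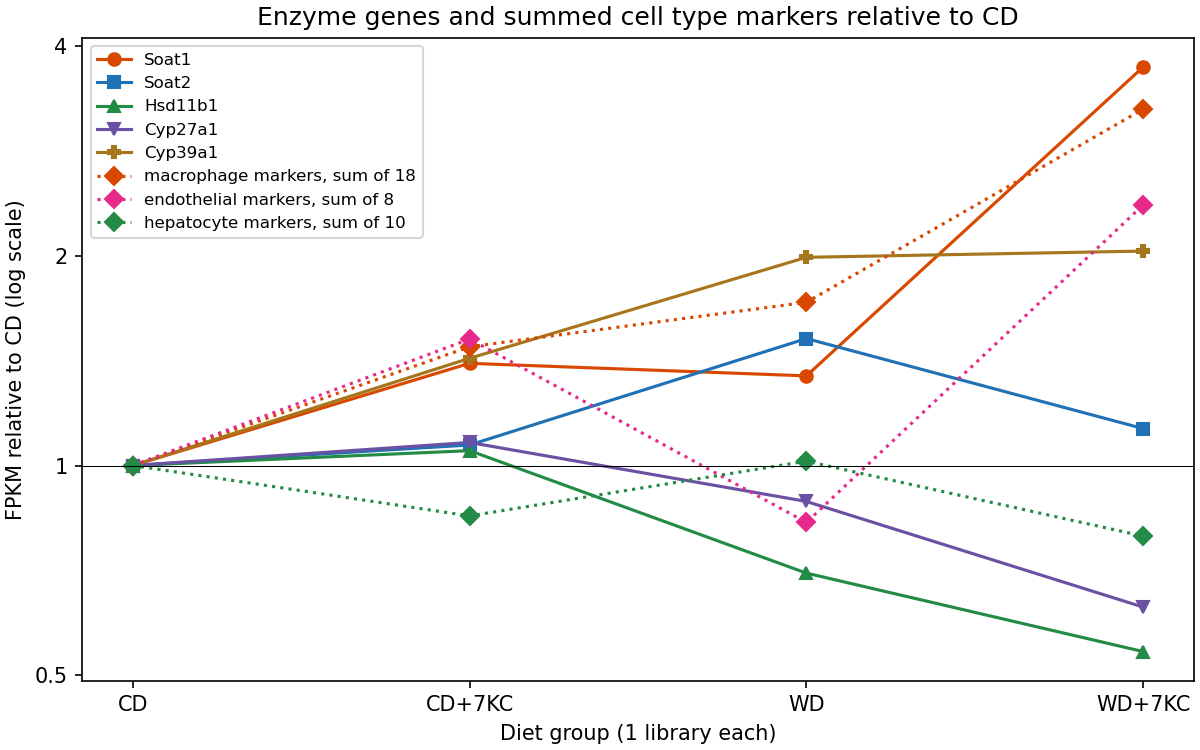
FPKM relative to the CD library (vertical axis, log scale) in the 4 diet groups, 1 library each. Solid lines are single enzyme genes and dotted lines the summed FPKM of marker lists, and lines only join the points of 1 item. In WD+7KC, Soat1 was at 3.73 times its CD level and the summed macrophage markers at 3.25 times, while Hsd11b1 was at 0.541 and the hepatocyte markers at 0.792. Levels are not rescaled. FPKM summed to 602059 in WD+7KC and 715605 in CD, so all points of WD+7KC would lie higher at equal sums. Ch25h is left out because it was listed at 0 in WD.

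Ch25h (ENSMUSG00000050370.5, chromosome 19, 34473778 to 34475164, minus strand), a gene of 1 exon, encodes the cholesterol hydroxylase of the side chain that macrophages induce in response to interferon. It was at 1.82 FPKM in CD, 0.237 FPKM in CD+7KC and 0.358 FPKM in WD+7KC and was listed at 0 in WD. The estimated reads were 23, 3, 5 and 0 in CD, CD+7KC, WD+7KC and WD. CD alone was above 1 FPKM. It was 7.69 times as high as CD+7KC (2.32 to 40.0), a log2 fold change of -2.51 in CD+7KC relative to CD. A count of 0 allows up to 3 reads, or 0.273 FPKM in WD. With 0 reads against 23, the counting interval of the ratio of WD to CD reached up to 0.201, a level at least 4.97-fold lower in WD. WD+7KC relative to WD, at 5 reads against 0, was within counting error, since the interval of the ratio runs from 0.714 upwards. WD+7KC relative to CD+7KC was 1.51 (0.293 to 9.71), again within counting error. The summed macrophage markers were lowest in CD, where Ch25h was highest, and their part in its level was not tested. Gm26902, which is not used here, overlaps Ch25h on the opposite strand, and the strand setting of the read assignment is not given in the sources used here.

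Soat1 and Ch25h held the differences past 2-fold, and the 250 bases before their start sites are shown in the same way. The windows are chr1:156474329-156474578 for Soat1 and chr19:34475149-34475398 for Ch25h, both on the minus strand. Both reach slightly into the annotated range of their gene, and distances are again counted from the end of each window. Capitals mark a CCAAT box in Soat1, and a TATA box (TATAAA) and a cAMP response element (TGACGTCA) in Ch25h.
Soat1: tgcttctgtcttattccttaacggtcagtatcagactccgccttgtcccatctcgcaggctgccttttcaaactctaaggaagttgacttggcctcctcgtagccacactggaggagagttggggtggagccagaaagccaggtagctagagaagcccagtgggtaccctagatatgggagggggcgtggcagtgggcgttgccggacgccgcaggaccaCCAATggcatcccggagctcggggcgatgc
Ch25h: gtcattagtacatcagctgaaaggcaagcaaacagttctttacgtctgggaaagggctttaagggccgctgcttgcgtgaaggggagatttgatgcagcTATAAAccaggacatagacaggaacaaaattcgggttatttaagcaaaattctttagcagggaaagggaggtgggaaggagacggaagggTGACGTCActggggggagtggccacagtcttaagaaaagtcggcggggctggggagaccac
Soat1 held 1 CCAAT box, 30 to 26 bases before the start. In Ch25h the letters of the cAMP response element lay 61 to 54 bases and those of the TATA box 151 to 146 bases before the start. The response element was found in 1.55% of all promoter windows and the TATA box letters in 12.4%. Matches of letters are a description of these windows and say nothing of the factors bound there.

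Counted across comparisons, few of the 6 genes differed by more than 2-fold, taken as a log2 fold change of FPKM + 0.1 above 1 or below -1. In CD+7KC relative to CD it was 1 of 6 (Ch25h, lower), where 6.75% of 15684 genes did so (3.84% higher, 2.91% lower). In WD+7KC relative to WD it was 2 of 6 (Soat1 and Ch25h, higher), where 9.00% of 15753 genes did (6.21% higher, 2.79% lower), and the Ch25h value of 2.195 rests on the pseudocount because WD is at 0. In WD relative to CD it was 1 of 6 (Ch25h, lower) beside 9.69% of 15597 genes (5.31% higher, 4.38% lower), and in WD+7KC relative to CD+7KC 1 of 6 (Soat1, higher) beside 12.6% of 15898 genes (8.01% higher, 4.61% lower). All-gene calls in WD+7KC relative to WD were 978 higher and 440 lower, or 1629 and 453 with equal sums. Those in the last comparison were 1274 higher and 733 lower, or 2007 and 719 with equal sums and 1714 and 593 after rescaling without the 20 most abundant genes. With 6 genes, counts of this size cannot be set apart from these shares. The median log2 fold change of the 6 was 0.10 for CD+7KC against CD and -0.17 for WD+7KC against WD. It was 0.10 for WD against CD and 0.26 for WD+7KC against CD+7KC, beside medians of all genes between -0.001 and 0.010. After rescaling, the median for WD+7KC against WD was 0.043 beside 0.21 for all genes, and that for WD+7KC against CD+7KC 0.47 beside 0.20. For the comparisons of CD+7KC and of WD with CD both were 0.14, beside 0.035 and 0.041. Of 24 ratios, the counting interval lay above 1 in 8, below 1 in 9 and included 1 in 7. Comparisons that share a library are not independent of each other.

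**Figure D3:**
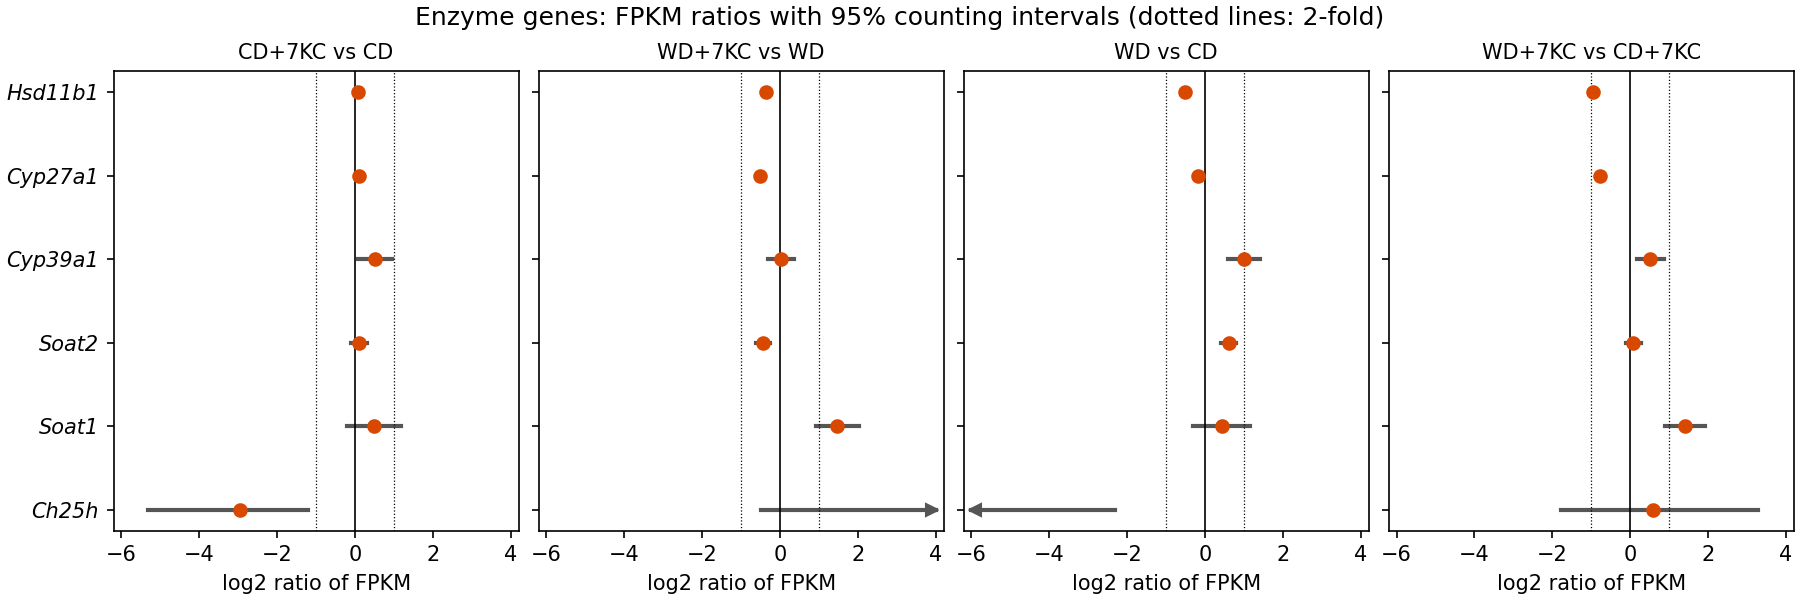
Log2 ratio of FPKM without a pseudocount (horizontal axis) for each enzyme gene (rows) in the 4 comparisons (panels). Points are the ratio of 1 library to another, bars are exact 95% counting intervals, arrows are open ends, and no point is drawn for Ch25h where WD was at 0. The intervals of Hsd11b1 and Cyp27a1 are the narrowest, and Soat1 lies right of the 2-fold line in both comparisons with WD+7KC on top.

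Most other genes of oxysterol metabolism were within 2-fold in each comparison, as were most of all genes, of which 6.75% to 12.6% were past it. The abundant exceptions, Cyp3a11 and Akr1d1, were lower in WD or WD+7KC. Of 16 such partners, 7 were higher and 9 lower in CD+7KC relative to CD (median -0.014), or 10 and 6 after rescaling (median 0.017). The 2 past 2-fold were the sulfotransferase genes Sult2a1 and Sult2b1, neither of which was above 0.293 FPKM in CD or CD+7KC. In WD+7KC relative to WD, 3 of 14 with values were higher and 11 lower (median -0.21). After rescaling it was 7 and 7 (median 0.011), beside an all-gene median of 0.21. Past 2-fold were Cyp3a11, the main drug-metabolizing cytochrome gene of its family in mouse liver and also a sterol hydroxylase, at 2724 FPKM without and 1214 FPKM with 7KC (-1.17, or -0.95 and so within 2-fold after rescaling), and Sult2b1, at 0.341 and 0.088 FPKM. In WD relative to CD, 6 of 14 were higher and 8 lower (median -0.16). Akr1d1, the steroid reductase gene of bile acid synthesis, was past 2-fold, at 64.7 and 30.2 FPKM under CD and WD. In WD+7KC relative to CD+7KC, 5 of 15 were higher and 10 lower (median -0.48, or -0.27 after rescaling beside 0.20 for all genes). Here Cyp46a1, the cholesterol hydroxylase gene best known from brain, was at 3.92 and 1.84 FPKM under CD+7KC and WD+7KC (-1.05, or -0.86 after rescaling), and Akr1d1 was at 80.1 and 29.0 FPKM. Cyp3a11 stood at -1.52, and Sult2a1 went from 0.111 FPKM to a listed 0. Gpr183, whose receptor senses an oxysterol made through Ch25h, was barely past 2-fold higher (1.005) at 0.099 and 0.300 FPKM. It stood at 0.65 in WD+7KC relative to WD. No counting interval was computed for Gpr183 at these low levels.
A pair of genes that follow Cyp27a1 and Ch25h in the pathway were lower under WD with 7KC, short of 2-fold. Cyp7b1, which hydroxylates the ring of their products, was at 4.44, 4.70, 3.07 and 2.47 FPKM in CD, CD+7KC, WD and WD+7KC. Hsd3b7, which oxidizes the hydroxylated ring, was at 277.2, 272.3, 208.4 and 159.6 FPKM. With the deposited values both were lowest in WD+7KC, as were Hsd11b1, Cyp27a1 and all of the 10 hepatocyte markers but Apoa1 and Apob. For WD+7KC against WD the log2 fold changes were -0.30 for Cyp7b1 and -0.38 for Hsd3b7, beside a hepatocyte marker median of -0.27. After rescaling they were -0.095 and -0.17, beside -0.056 for the markers and 0.21 for all genes. Counting intervals were not computed for Cyp7b1 and Hsd3b7.

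Of 17 genes that handle sterol esters and carry sterols, 16 had values and none was past 2-fold in any comparison. Over all genes, 6.75% to 12.6% were past 2-fold per comparison, and none among 16 genes cannot be set apart from these shares. The pancreatic ester hydrolase gene Cel was listed at 0 in all 4 libraries. In CD+7KC relative to CD, 4 were higher and 12 lower (median -0.083), or 6 and 10 after rescaling (median -0.043), from Npc1, a lysosomal cholesterol exporter gene, at -0.31 to Lipe at 0.20. In WD+7KC relative to WD, 5 were higher and 11 lower (median -0.097). After rescaling, which moved the all-gene median to 0.21, 11 were higher and 5 lower (median 0.12). With the deposited values they ran from the sterol carrier gene Stard5 at -0.58 to Stard3 at 0.48. In WD relative to CD, 10 were higher and 6 lower (median 0.12), and in WD+7KC relative to CD+7KC 9 and 7 (median 0.043). After rescaling these became 11 and 5 (median 0.15) and 13 and 3 (median 0.25), with none past 2-fold. The all-gene medians were then 0.041 and 0.20. In both of these the extremes were the oxysterol-binding protein relatives Osbpl8, at -0.73 and -0.65, and Osbpl3, at 0.73 and 0.69. The ester hydrolase genes Lipa, of lysosomes, and Nceh1, of the endoplasmic reticulum, which undo what the Soat enzymes make, were at 169.2, 156.7, 189.2 and 181.9 FPKM and at 10.3, 8.71, 14.2 and 13.3 FPKM in CD, CD+7KC, WD and WD+7KC. Nceh1 and Soat2 were both higher in WD than in CD, at 0.46 and 0.60 on the log2 scale.

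**Figure D4:**
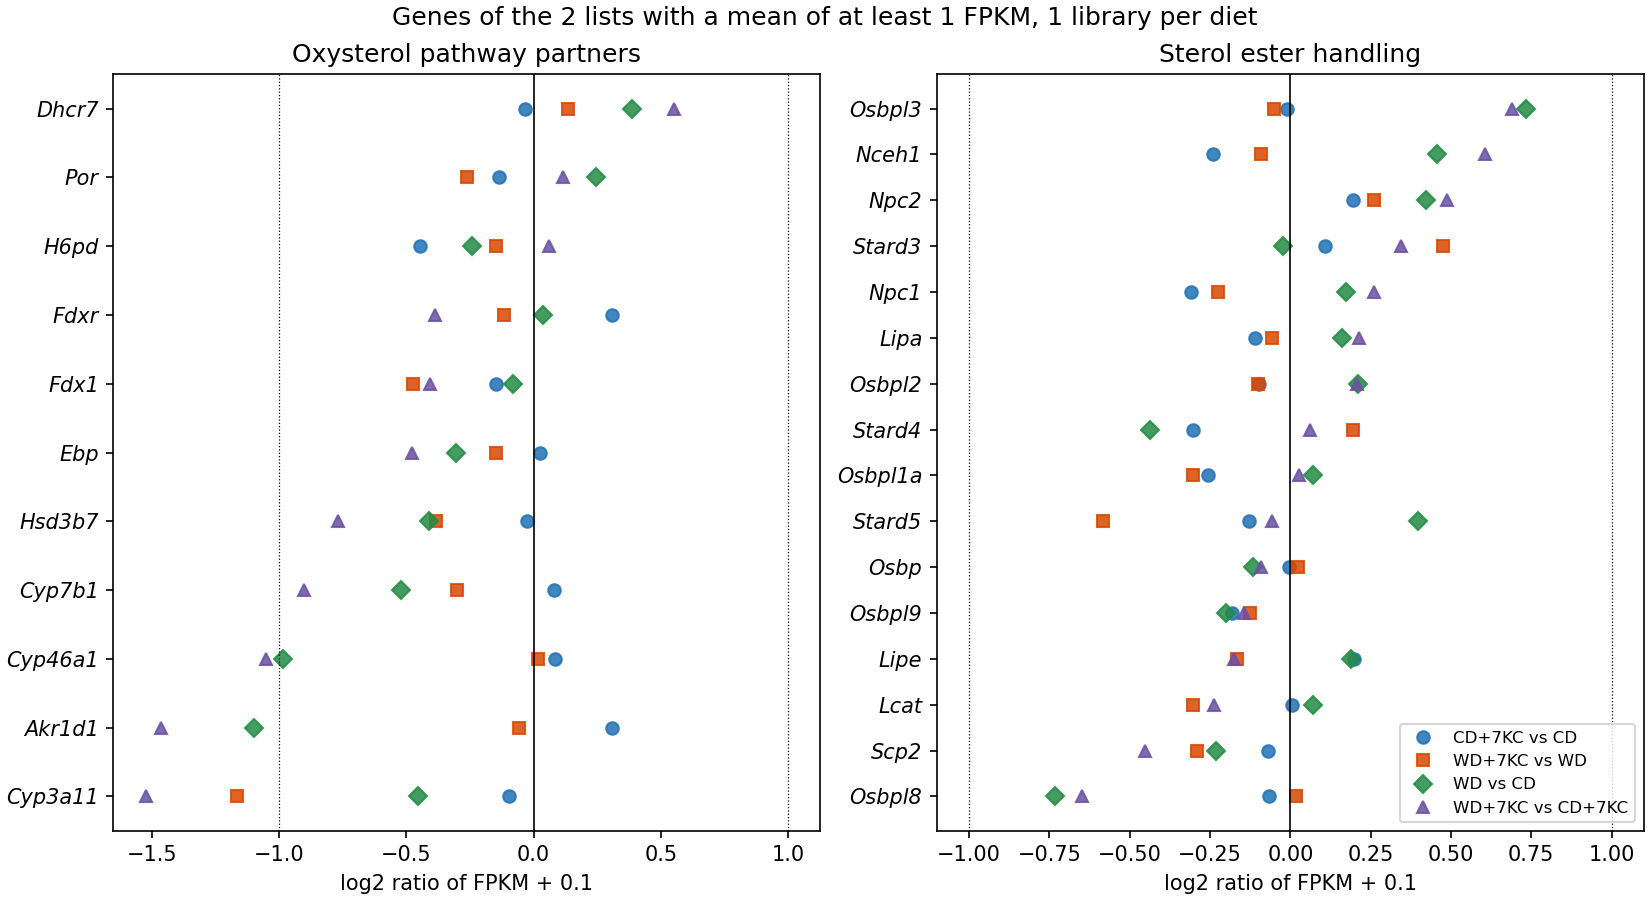
Log2 ratio of FPKM + 0.1 (horizontal axis) for 11 oxysterol pathway partners (left) and 16 genes of sterol ester handling (right) whose mean reached 1 FPKM, 1 symbol per comparison and 1 library per group. Dotted lines mark 2-fold. Akr1d1, Cyp46a1 and Cyp3a11 lie left of the 2-fold line in WD+7KC relative to CD+7KC, and all points on the right panel lie within 2-fold.

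To describe which transcripts shared the pattern of each enzyme gene, distances were taken between log2 values centred over the 4 libraries, for the 10686 genes whose mean reached 1 FPKM. As 4 libraries give a pattern few points, the number within a distance of 0.2 is given as well. Nearest to Soat1 were Slc11a1 (distance 0.099), Ly6a (0.13) and Vav1 (0.16), and 8 genes lay within 0.2. Slc11a1, a metal transporter gene of phagocytes, was at 2.77, 3.79, 3.82 and 9.11 FPKM in CD, CD+7KC, WD and WD+7KC. Vav1, at 0.687, 0.998, 0.904 and 2.26 FPKM in the same order, reached a mean of 1 FPKM only through WD+7KC. Weakly expressed genes could thus enter through a peak in that library, so nearness to Soat1 is no support for its difference. For Cyp39a1 the nearest were Nagk (0.032), Eef2k (0.075) and 2010107G23Rik (0.082), with 36 genes within 0.2. For Hsd11b1 they were Nlrp6 (0.029), Abhd3 (0.030) and Cyp4f15 (0.039), with 113 genes within 0.2. Cyp27a1 had 154 genes within 0.2, led by Arntl (0.046), Scmh1 (0.051) and Yod1 (0.052), and Soat2 had 211, led by 1190007I07Rik (0.036), Mrpl23 (0.036) and Ociad2 (0.055). No gene lay within 0.2 of Ch25h. Its nearest were Gm5512 (1.501), the metallothionein gene Mt2 (1.60) and Kcne3 (1.75), and Mt2 was at 515.6, 228.4, 104.2 and 145.0 FPKM in the 4 libraries, highest in CD and lowest in WD as Ch25h was.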

How the data were processed

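RNA was isolated from liver, and stranded mRNA libraries were sequenced as single-end reads. Per the labels and methods, the authors mapped reads to mm10 with TopHat 2.0.13, Bowtie2 2.2.3 and SAMtools 0.1.19, computed FPKM values with Cufflinks 2.2.1 and deposited these values by gene symbol, in a table for each library. The gene annotation and Cufflinks options are not given in the sources used here.

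Ratios and log2 fold changes (pseudocount 0.1) were computed between libraries for genes above 0 FPKM in either. The 6 genes, gene lists and thresholds were chosen with earlier results of these data known. Named genes were the 6 enzyme genes, the 3 genes of nearest pattern to each, and list members past 2-fold or, where none was, the extremes. Markers past 2-fold were named for WD+7KC against WD and given as medians and counts elsewhere. Partners quoted outside this rule (such as H6pd, Fdx1, Por, Cyp7b1, Hsd3b7, Lipa and Nceh1) and overlapping genes were picked after values were seen, the partners for their role. Per-library depth was estimated from steps of FPKM times transcript length minus 200 bases (GENCODE vM21 lengths) and gave 9440000 to 12120000 fragments. The code was tested on simulated data. Alternatives were pseudocounts of 1, 0.01 and none, a minimum of 1 FPKM, 4 rescalings and a 1.5-fold threshold. Python 3.11.15, numpy 2.4.6, pandas 2.3.3, scipy 1.17.1 and matplotlib 3.10.9 were used.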

Additional observations from a re-analysis of the deposited data

Results flagged for a closer look

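The log2 fold changes with 7KC had opposite signs under the diets for 4 of the 6 genes, and these differences were not tested because each group had 1 library. For Hsd11b1 and Cyp27a1 the counting intervals lay on opposite sides of 1 under CD and WD. For Soat2 under CD and for Ch25h under WD they included 1, so that not even the reads give a direction. The intervals leave out variation between mice, so they give no direction of a 7KC effect for Hsd11b1 and Cyp27a1 either. Hsd11b1 had a log2 fold change of 0.071 under CD and -0.37 under WD, a difference of -0.44. Cyp27a1 had 0.11 and -0.50, a difference of -0.61, and Soat2 had 0.097 and -0.43, a difference of -0.52. After rescaling to equal sums these differences were -0.27, -0.44 and -0.35. Ch25h had -2.51 and 2.195, a difference of 4.71, and its values for WD against CD were -4.26 without 7KC and, with an interval that includes 1, 0.44 with it, which is the same difference of 4.71. It rests on 23, 3, 0 and 5 reads in CD, CD+7KC, WD and WD+7KC and on the pseudocount.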

How the results depend on the processing

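No paired analysis was possible because each group had 1 library, and leaving out a library would leave a group empty. Of 186 single values of the 6 genes under the alternatives, 169 lay within the counting interval of the value reported and 17 did not. Those outside included Hsd11b1, Cyp27a1 and Soat2 in both comparisons with WD+7KC on top after rescaling to equal sums. A change of sign was looked for only in values past 2-fold and found in 0. Pseudocounts cannot turn a sign and the rescalings were too small to, so that 0 is no support. Directions and sides of the 2-fold threshold held for all 24 values with a pseudocount of 0.01, with scaling to the upper quartile and with median-ratio scaling, and the order of the 4 libraries was the same for 6 of 6 genes under the 4 rescalings. The number past 2-fold in WD+7KC relative to WD, 2, was 0 with a pseudocount of 1 (Soat1 at 0.86), and it was 1 without a pseudocount and 1 with a minimum of 1 FPKM, because Ch25h drops out. In WD relative to CD the number, 1, was 0 without a pseudocount, again without Ch25h, 2 after rescaling to equal sums, 2 after rescaling without the 20 most abundant genes (both adding Cyp39a1) and 3 with a 1.5-fold threshold. In WD+7KC relative to CD+7KC it was 1, but 0 with a pseudocount of 1 (Soat1 at 0.83) and 3 with a 1.5-fold threshold, which adds Hsd11b1 and Cyp27a1. Counts over all genes depended on the pseudocount. In CD+7KC relative to CD, 1059 genes were past 2-fold, against 113 with a pseudocount of 1, 2380 with 0.01, 287 with a minimum of 1 FPKM and 2742 with a 1.5-fold threshold. In WD+7KC relative to WD, 1418 became 189, 2830, 521 and 3310 in the same order, in WD relative to CD 1511 became 287, 2929, 602 and 3778, and in WD+7KC relative to CD+7KC 2007 became 541, 3582, 1043 and 4597. An alternative added after the data were seen, reads from the longest mRNA, left all 24 counting intervals on the same side of 1. Depth limits Ch25h most, with 23 reads at best, and then Soat1, with 32 to 131.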
